A study of Mus musculus with 2 samples.

Results

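The genes described here are the stress regulators, amino acid transporters, serine and folate enzymes, other amino acid enzymes and tRNA synthetases associated with the transcription factor ATF4. They were chosen by name, 48 entries in all, when earlier results of these data were already known. Of these, 46 had a probe set whose platform annotation names that gene alone, out of 18193 genes named in this way. Pycr1 had no such probe set and Vldlr1 matched no gene symbol or synonym, and neither has a value here. RNA came from primary mouse embryonic fibroblasts (MEFs) prepared from whole C57BL/6 embryos at day 13.5 and used young, at passage 2. One array was hybridized with RNA of cells given GapmeR AK156230, an antisense oligonucleotide that directs RNase H to the long noncoding RNA AK156230, and the other with RNA of cells given GapmeR Control, a scrambled GapmeR with no target. The comparison asks which mRNAs differ once AK156230 is knocked down. Only 1 GapmeR against AK156230 was used, and untransfected cells were not analysed here.

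ATF4 is the effector of the integrated stress response. When a kinase such as PERK or GCN2 phosphorylates the initiation factor eIF2, most translation slows while that of Atf4 mRNA goes up, and the protein then turns on genes for amino acid uptake, synthesis of serine and other non-essential amino acids, one-carbon metabolism in mitochondria and charging of tRNAs. Its partners include C/EBP proteins such as C/EBP gamma, and its downstream regulators include CHOP (Ddit3) and TRIB3. Cultured fibroblasts use this programme in ordinary growth as well as under stress.

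Each value is a MAS5 signal, a brightness of a probe set on a linear scale that was scaled per array by the authors. Signals of different probe sets are not comparable with each other, so genes are compared only by their log2 ratio, taken as GapmeR AK156230 over GapmeR Control. The median signal over 45037 probe sets was 50.95 with GapmeR AK156230 and 54.8 with GapmeR Control. With 1 array per condition there is no replicate spread and no test, and a gene is called higher or lower only as a ratio of 2-fold or more between these 2 arrays. Over 5113 genes the spread between the log2 ratios of the 2 brightest probe sets of a gene came to 0.276 (SD of a single probe set). Both are read from the same RNA on the same arrays, so this spread leaves out variation between cultures, transfections, labelings and arrays. The files hold no detection calls and no control probe sets, and no probe set was annotated to AK156230. In bulk RNA, fewer cells of a type and less RNA per cell cannot be told apart.

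The cells carried fibroblast mRNAs on both arrays, and several of these were lower with GapmeR AK156230. Summed over the same 12 fibroblast markers on each array, the signal was 29027.5 with GapmeR AK156230 and 41356.2 with GapmeR Control, sums that the brightest probe sets (Vim, Fn1 and Col1a2) dominate. Of the 12, Col3a1, Pdgfra, Pdgfrb and Lum (4 genes) were past 2-fold on the lower side and none was on the higher side, with a median log2 ratio of -0.79. Vim, S100a4 and Dcn had log2 ratios of -0.09, -0.02 and 0.06. Of the 22 markers of macrophages, keratinocytes, skeletal muscle, endothelium, liver and kidney, Cd68 and Kdr were higher by 2-fold or more and none was lower. The summed signals of these 5 lists ran from 73.1 to 1169.3 with GapmeR AK156230 and from 86.9 to 1124.7 with GapmeR Control, and each sum can be set only against that of the same list on the other array. Several of these markers had signal: 4 of 5 macrophage markers, 3 of 5 of skeletal muscle and 1 each of keratinocytes and endothelium were at or above the array median on the brighter array. Lyz2, a lysozyme of macrophages, had signals of 526.64 with GapmeR AK156230 and 724.68 with GapmeR Control. Krt5, Krt14, Ptprc and Pecam1 were below the median signal on both arrays, and no marker was at 0. The part of these shifts in the results that follow was not tested.

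Most ATF4-associated genes had log2 ratios below 0, most of them within 2-fold. Of the 46 genes, 11 were lower by 2-fold or more and 0 were higher. Among all named genes the share lower was 3.85% and the share higher 1.59%, and among the 12319 named genes at or above the array median on the brighter array these shares were 4.92% and 1.9%. The 11 genes were Aldh1l2, Nupr1, Trib3, Chac1, Slc6a9, Psph, Slc7a5, Atf5, Slc7a3, Gpt2 and Slc1a4. Over the whole set 41 of 46 log2 ratios were below 0, as were 58.8% of those of all named genes. The 41 became 39 with both arrays scaled to the same median and 38 with the mean of all probe sets. The median log2 ratio was -0.45, against -0.07 for all named genes. At a threshold of 1.5-fold, 19 of the 46 genes were lower and 2, Ppp1r15a and Mthfd1, were higher, where 9.69% and 5.48% of all named genes were. At 3-fold, 2 were lower, Aldh1l2 and Nupr1, and none higher, where 1.45% and 0.44% of all named genes were. All 46 had a signal at or above the array median on their brighter array, and 44 had one on both arrays.

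**Figure D1:**
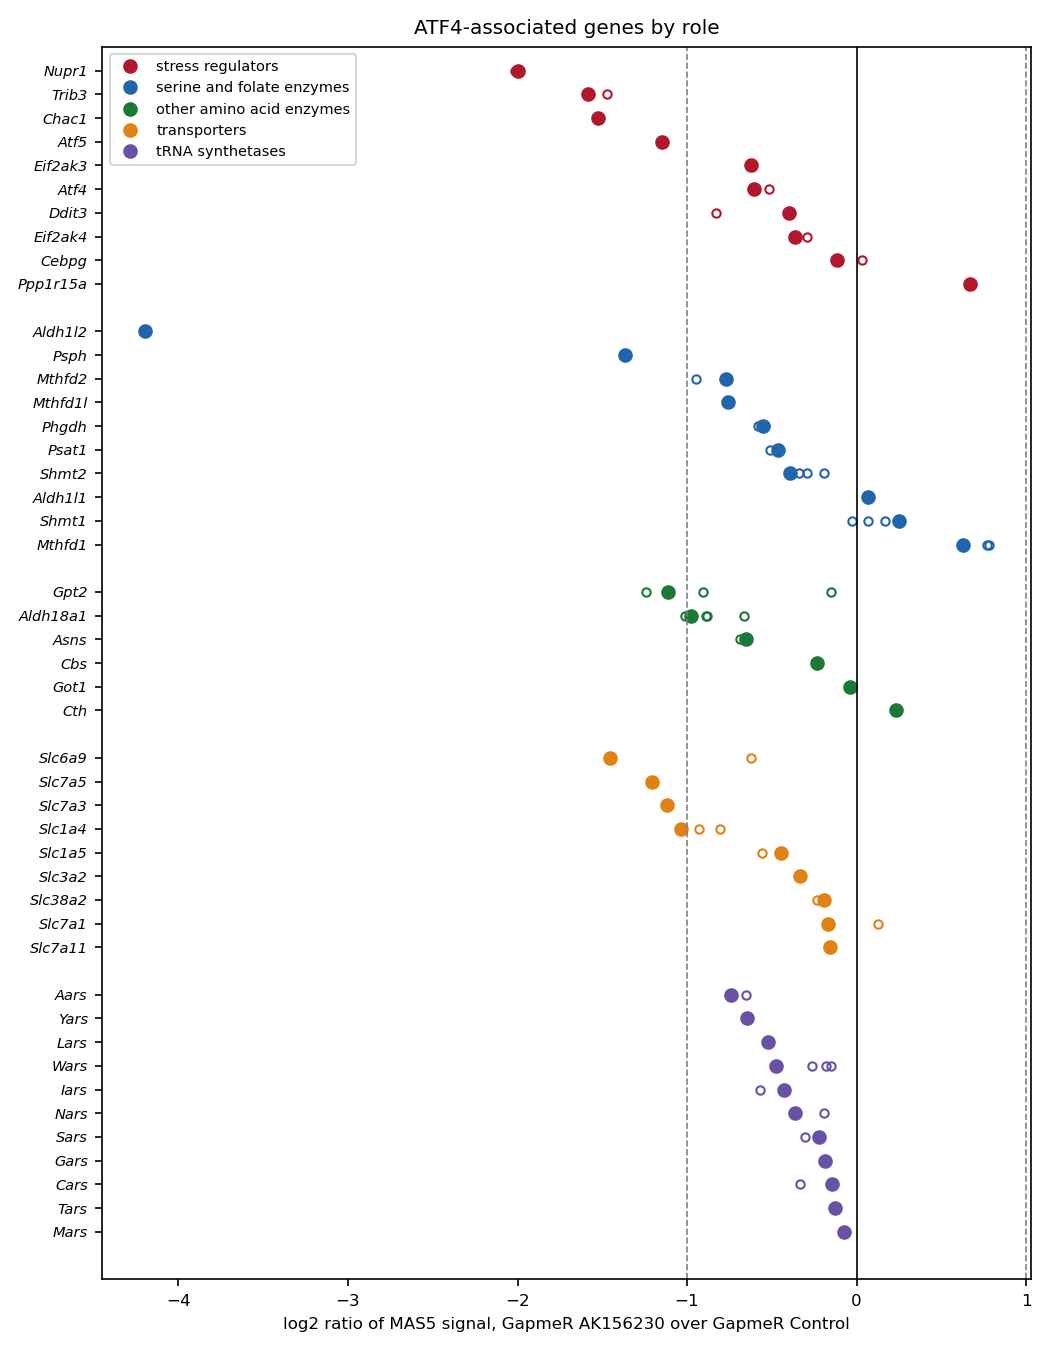
Each of the 46 measured ATF4-associated genes by role, plotted by its log2 ratio of MAS5 signal (GapmeR AK156230 over GapmeR Control), with the representative probe set filled, the other probe sets above the array median open, and dashed lines at 2-fold. Most filled points lie left of 0, 11 lie beyond 2-fold on the lower side and none beyond it on the higher side.

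The direction was shared by the probe sets of most genes. Of 87 probe sets of these genes above the array median, 76 had a log2 ratio below 0. Of all named genes at or above the array median, 56.8% did. Of the 26 genes with several such probe sets, 23 had the same sign at each of them, and the exceptions were Cebpg, Shmt1 and Slc7a1. Probe sets of a gene read the same RNA on the same arrays. The share of all genes with such agreement was not counted, so this count is no result about the set. Of the 11 lower genes 6 were read by a single probe set, Aldh1l2 among them, so those ratios have no second reading.

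None of the genes lower by 2-fold or more was long. Genomic spans of the 11 genes ran from 2.23 to 46.7 kb, with a median of 21.9 kb, against 22.5 kb for all genes at or above the array median. Over all genes at or above the array median it was the long ones that were more often lower, with 11.3% of genes of 50 kb or more past 2-fold on the lower side and 2.57% of the 9011 genes under 50 kb. Of the 38 ATF4-associated genes under 50 kb, 11 were lower by that much, and of the 8 longer ones none was. With only 8 longer genes, none lower cannot be told apart from a share of 11.3%.

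ATF4 and C/EBP proteins bind as dimers to a composite site, the C/EBP-ATF response element or amino acid response element. Its core was searched as TGATGNAA on both strands of the RefSeq promoters of GRCm38.p6, each 250 bases before and 50 after a transcript start. The reverse complement of the exact form TGATGCAA is TTGCATCA. A promoter was given for 38 of the 47 entries that matched a gene, and 13 of the 38 (34.2%) held the core. The core was in 4.51% of all 27025 genes of the promoter table, in 3.24% of the 14452 genes also measured on the arrays, and in 3.97% of all 32851 promoters. The exact form was in 10 of the 38 genes and in 1.03% of all genes. Some of these genes are known as ATF4 targets because such a site was found in them, so the share describes the set and is no independent evidence. Not in the promoter table were Aldh1l2, Cth, Slc7a3, Slc7a5, Slc1a5, Cars, Lars, Nars and Wars.

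Of the 13 genes 12 were measured, and all 12 had a log2 ratio below 0 as deposited, with a median of -0.65, although Got1 was at 0.07 with both arrays scaled to the same median. The genes with a promoter but no match had a median of -0.39. Among all measured genes the median was -0.12 for those with a match and -0.07 for those without. Of the 8 genes lower by 2-fold or more with a promoter, 4 held the core, and of the 29 within 2-fold 8 did. The core was in 5 of 7 tRNA synthetase genes and in 3 of 10 stress regulator genes, while none of 9 promoters of serine and folate enzymes held it. A match is a run of letters and not a measured binding site, and its absence says only that these letters are not in this window.

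Shown first is the whole upstream stretch of Chac1 and Nupr1, the regulators lower by 2-fold or more whose match lies before the transcript start, and then single matches of other genes with 10 bases on either side. Capitals mark the core or its reverse complement, and each sequence runs 5′ to 3′ on the strand of its gene. The Chac1 stretch is chr2:119350992-119351241 on the plus strand and the Nupr1 stretch chr7:126625471-126625720 on the minus strand, both the 250 bases before the start.
Chac1: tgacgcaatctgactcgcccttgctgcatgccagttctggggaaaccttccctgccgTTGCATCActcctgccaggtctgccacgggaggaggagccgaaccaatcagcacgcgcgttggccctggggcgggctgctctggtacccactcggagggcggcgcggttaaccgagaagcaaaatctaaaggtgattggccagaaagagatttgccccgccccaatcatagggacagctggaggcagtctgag
Nupr1: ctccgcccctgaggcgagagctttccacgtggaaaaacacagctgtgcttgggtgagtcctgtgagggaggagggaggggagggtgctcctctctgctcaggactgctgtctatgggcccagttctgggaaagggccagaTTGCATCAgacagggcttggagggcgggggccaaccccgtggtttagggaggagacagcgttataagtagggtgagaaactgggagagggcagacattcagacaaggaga

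The remaining lines give other genes with a core, from 2 genes lower by 2-fold or more (Trib3 at chr2:152344029-152344056, minus strand, and Slc1a4 at chr11:20332700-20332727, minus strand) through Asns (chr6:7693215-7693242, minus strand) and Yars (chr4:129189896-129189923, plus strand) to Slc7a11 (chr3:50443643-50443689, minus strand), which held a pair of cores facing each other and differed little between the arrays.
Trib3: tagctcaggtTTACATCAgccgggcggg
Slc1a4: gcctcctgcgTTGCATCAtctccagcct
Asns: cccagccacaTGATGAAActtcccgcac
Yars: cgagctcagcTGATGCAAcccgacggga
Slc7a11: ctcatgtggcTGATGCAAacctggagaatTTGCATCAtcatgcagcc

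There were 15 matches in the 13 genes, 11 before the transcript start and 4 after it, and 11 lay on the strand opposite the gene. The first base of the match was 193 bases before the start in Chac1, 110 before it in Nupr1, 4 before it in Slc1a4 and 15 bases into the transcript in Trib3. Slc7a11 held 2 matches.

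**Figure D2:**
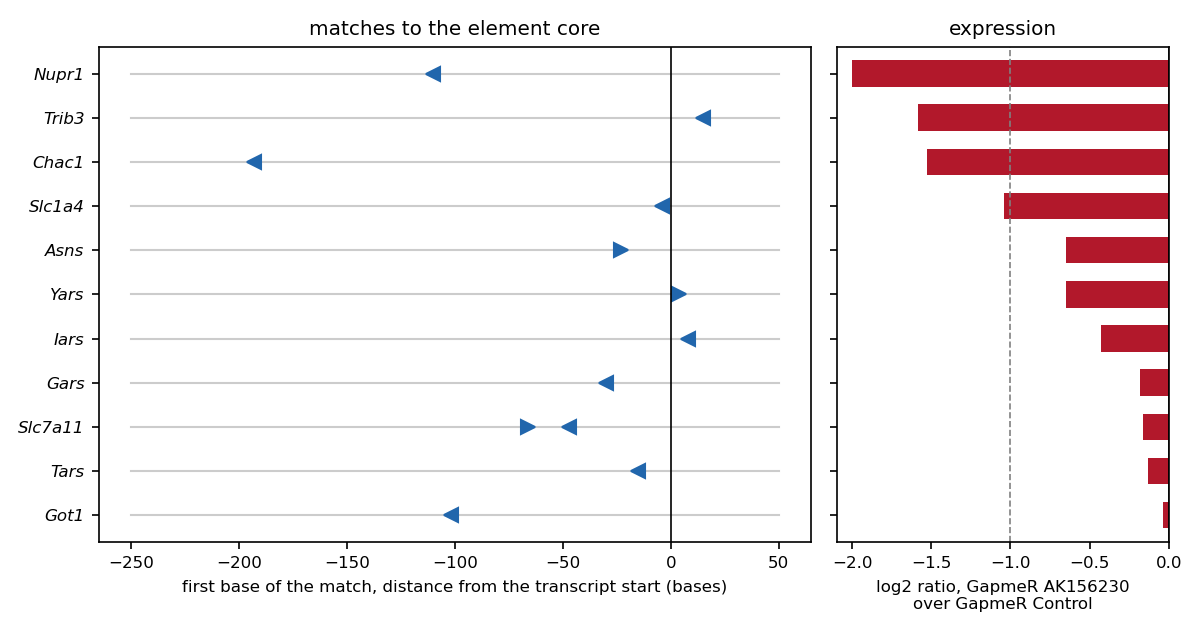
Left, the first base of each match to the element core relative to the transcript start in 11 of the 12 measured genes that hold one, with the window as a grey line and the arrowhead giving the strand of the match; right, the expression of the same gene as the log2 ratio (GapmeR AK156230 over GapmeR Control), dashed at 2-fold. As deposited, all 11 bars lie below 0 (Got1 is above it with both arrays scaled to the same median), from Nupr1, which is 4.0-fold lower, to Got1 at -0.04.

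Of 10 measured stress regulators 4 were lower by 2-fold or more, 0 were higher, and the median log2 ratio was -0.61. Atf4 itself, which encodes the transcription factor (chromosome 15, 80255184 to 80257545), had a signal of 1297.54 with GapmeR AK156230 and 1974.44 with GapmeR Control, a log2 ratio of -0.61. Its second bright probe set was at -0.51, so the mRNA was within 2-fold at both. ATF4 is set mainly by translation, which arrays of mRNA do not read.

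Nupr1, a small stress-induced chromatin protein (chromosome 7, 126623246 to 126625470), had a signal of 375.48 with GapmeR AK156230 and 1500.29 with GapmeR Control, 4.0-fold lower. Its other probe set had a log2 ratio of -2.01. Trib3, a pseudokinase that restrains AKT and ATF4 (chromosome 2, 152337425 to 152344060), had signals of 262.6 with GapmeR AK156230 and 787.65 with GapmeR Control, 3.0-fold lower, and -1.47 on the log2 scale at its other probe set. Chac1, an enzyme that degrades glutathione (chromosome 2, 119351242 to 119354326), had 228.45 with GapmeR AK156230 and 658.86 with GapmeR Control, 2.88-fold lower. These 3 genes were the regulators that held a core in the promoter. Atf5, a transcription factor related to ATF4, was 2.21-fold lower (656.65 with GapmeR AK156230 and 1452.3 with GapmeR Control).

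The remaining regulators were within 2-fold. Ddit3, which encodes the pro-apoptotic factor CHOP, had signals of 907.59 with GapmeR AK156230 and 1194.02 with GapmeR Control, a log2 ratio of -0.40, and its dimmer probe set was at -0.83. The kinase genes Eif2ak3 (PERK, which senses the endoplasmic reticulum) and Eif2ak4 (GCN2, which senses uncharged tRNA) had log2 ratios of -0.62 and -0.36. Only 1 of the 3 probe sets of Eif2ak3 was above the array median, and with the mean of all 3 Eif2ak3 was at -0.16. Cebpg, the dimer partner of ATF4, had -0.12 and a second probe set at 0.03. Ppp1r15a, which encodes the phosphatase subunit GADD34 that reverses eIF2 phosphorylation, was the regulator with the highest ratio, at 0.67 (370.73 with GapmeR AK156230 and 232.82 with GapmeR Control). Ppp1r15a is a known target of ATF4 and CHOP, and here its sign was opposite to that of the other 9 regulators as deposited (Cebpg was at 0.0088 with the mean of its probe sets).

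**Figure D3:**
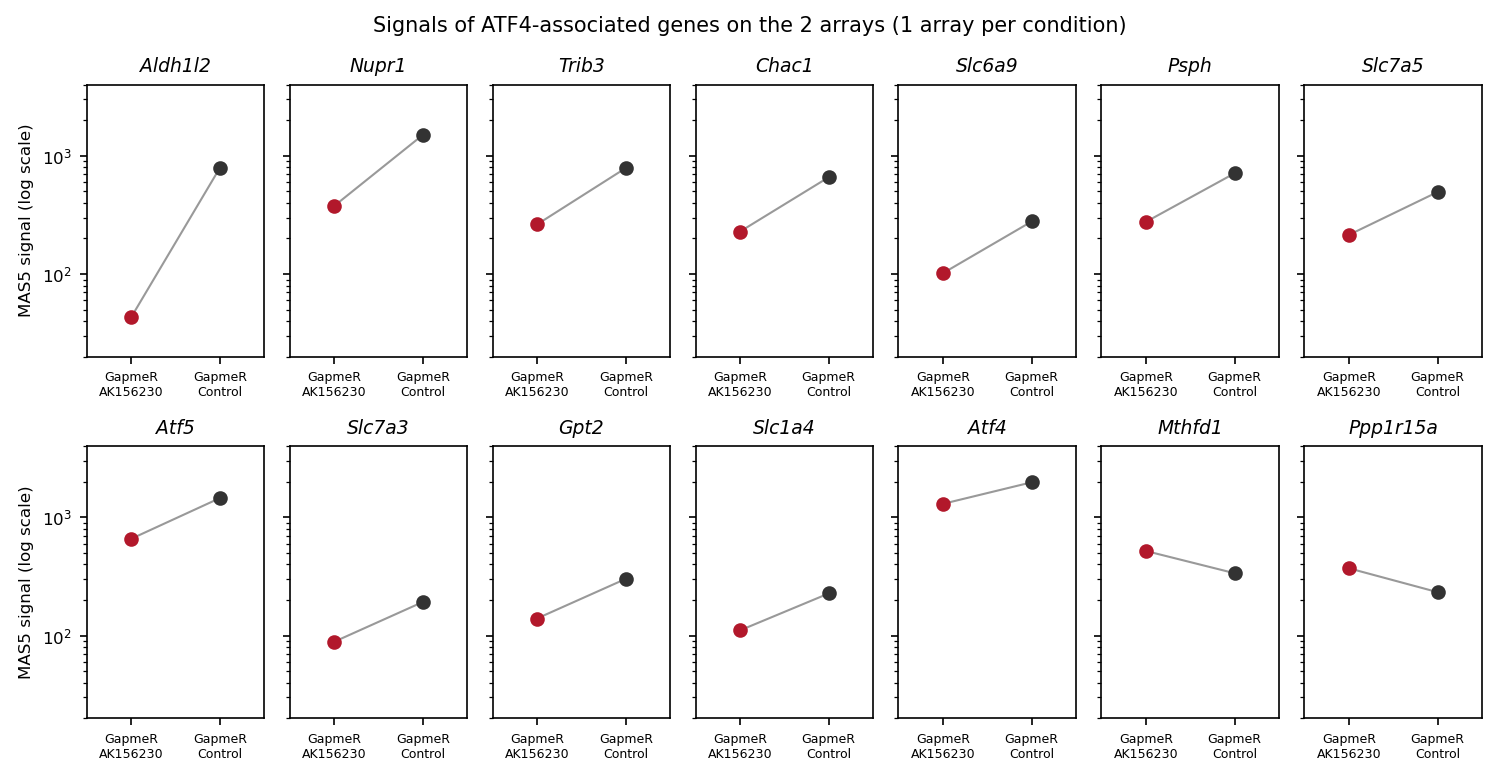
Signals (MAS5, log axis) of the 11 genes lower by 2-fold or more and of Atf4, Mthfd1 and Ppp1r15a, with GapmeR AK156230 at left and GapmeR Control at right in each panel and 1 array per point. Aldh1l2 has the steepest line, 43.01 with GapmeR AK156230 and 790.61 with GapmeR Control, and the lines of Mthfd1 and Ppp1r15a slope the other way.

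Aldh1l2 had the lowest ratio of all the genes in the set. It encodes the mitochondrial enzyme that oxidizes formyl-tetrahydrofolate to carbon dioxide with the production of NADPH (chromosome 10, 83487447 to 83534146). Its signal was 43.01 with GapmeR AK156230 and 790.61 with GapmeR Control, 18.4-fold lower, and only 1 of the 18193 named genes had a lower ratio. The signal with GapmeR AK156230 was below that array's median, and with 24.3 added to every signal the log2 ratio was -3.60 in place of -4.20.

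The enzymes of serine synthesis all had log2 ratios below 0, but of the 3 steps only the last differed by 2-fold. Phgdh, which commits phosphoglycerate to serine, had signals of 1865.06 with GapmeR AK156230 and 2728.79 with GapmeR Control. Its 4 probe sets had log2 ratios from -0.58 to -0.54, and the IDs of all 4 end in _x_at. Psat1, the aminotransferase of the next step, was at -0.46 and -0.51. Psph, the phosphatase that releases serine, was 2.58-fold lower (275.95 with GapmeR AK156230 and 711.28 with GapmeR Control) at its only probe set.

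The 7 folate enzymes of the set are described by compartment, a grouping made after the values were seen. The 4 mitochondrial ones had log2 ratios below 0 and the 3 cytosolic ones above 0, as deposited and under each of the 8 other ways of scaling, filtering or summarizing tried. Shmt2, which splits serine in mitochondria, was at -0.39, and Mthfd2 and Mthfd1l, which carry the one-carbon unit on to formate, were at -0.77 and -0.76. Their cytosolic counterparts Shmt1, Mthfd1 and Aldh1l1 were at 0.25, 0.63 and 0.07. The 3 probe sets of Mthfd1 ran from 0.63 to 0.78, while those of Shmt1 lay on both sides of 0, the lowest at -0.03. Apart from Aldh1l2, each of these enzymes was within 2-fold, and Aldh1l1 was near the array median on both arrays (56.49 with GapmeR AK156230 and 53.94 with GapmeR Control). Folate and glycine genes outside the set were mixed in this respect, and that list was not counted by compartment. Of the 18 measured, 13 had log2 ratios below 0 and 5 above as deposited. With both arrays scaled to the same median, 7 were below 0 and 11 above. The genes named next are examples picked with their values in view. Against the split, cytosolic Atic was 3.51-fold lower, and Gcsh and Dld, of the mitochondrial glycine cleavage system, were at 0.11 and 0.09. With it, mitochondrial Mthfd2l was at -0.32 and cytosolic Mtr at 0.74.

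Of the 6 other amino acid enzymes measured, Gpt2 alone was lower by 2-fold or more. Gpt2, the mitochondrial alanine aminotransferase, had signals of 139.42 with GapmeR AK156230 and 301.65 with GapmeR Control, 2.16-fold lower, and its 4 bright probe sets ran from -1.24 to -0.15. Aldh18a1, which starts proline synthesis, was at -0.98 (385.81 with GapmeR AK156230 and 758.94 with GapmeR Control), just within 2-fold, with 5 probe sets from -1.01 to -0.66. The -0.66 was read by the only one whose ID does not end in _x_at. Asns, which makes asparagine and carries the element shown above, was at -0.65 and -0.69 (883.09 with GapmeR AK156230 and 1385.96 with GapmeR Control at the brighter). The aspartate aminotransferase gene Got1 was at -0.04. The transsulfuration genes Cbs and Cth, which turn homocysteine into cysteine, were at -0.23 and 0.23.

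The 9 amino acid transporters all had log2 ratios below 0, also under each rescaling, although Slc7a1 was above 0 with the mean of its probe sets (0.12). Below 0 as deposited were also 58.8% of all named genes and 15 of 18 other amino acid transporters. With both arrays scaled to the same median, 11 of those 18 were. Slc6a9, a glycine transporter, was 2.74-fold lower (101.68 with GapmeR AK156230 and 278.33 with GapmeR Control), with -0.62 at its other bright probe set. Slc7a5, the LAT1 subunit that imports leucine and other large neutral amino acids, was 2.31-fold lower (214.17 with GapmeR AK156230 and 494.02 with GapmeR Control). Its partner chain Slc3a2 differed less, with 774.31 with GapmeR AK156230 and 974.78 with GapmeR Control, a log2 ratio of -0.33. Slc7a3, a cationic amino acid transporter, was 2.17-fold lower (88.56 with GapmeR AK156230 and 192.34 with GapmeR Control). Slc1a4, which carries serine and alanine, was 2.05-fold lower (110.6 with GapmeR AK156230 and 227.1 with GapmeR Control), and its other probe sets were at -0.93 and -0.81. Slc1a4 was within 2-fold with both arrays scaled to the same median (-0.93), with quantile normalization (-0.97) and with the mean of its probe sets (-0.92).

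The other transporters were within 2-fold. The glutamine transporters Slc1a5 and Slc38a2 had log2 ratios of -0.44 and -0.19, and the cationic amino acid transporter Slc7a1 -0.17. Slc7a11, the cystine importer, was dim on both arrays, with 52.76 with GapmeR AK156230 and 58.93 with GapmeR Control, a ratio of -0.16. Slc7a3, Slc1a4 and Gpt2 were within 2-fold once 24.3 was added to every signal, at -0.94, -0.90 and -0.99.

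None of the 11 tRNA synthetases, which attach amino acids to their tRNAs, differed by 2-fold, but each had a log2 ratio below 0 as deposited, and 10 of 11 did with both arrays scaled to the same median. Their median was -0.36, with Aars (alanine) lowest at -0.74 and Mars (methionine) highest at -0.07. Aars had signals of 732.45 with GapmeR AK156230 and 1222.93 with GapmeR Control, and -0.65 at its other probe set. Yars (tyrosine) had 346.0 with GapmeR AK156230 and 542.11 with GapmeR Control, a log2 ratio of -0.65. Lars, Wars, Iars and Nars were between -0.52 and -0.36, and Sars, Gars, Cars and Tars between -0.22 and -0.13. The other probe sets of Wars ran from -0.26 to -0.15. Of the 5 synthetase genes that held a core, Yars, Iars, Gars and Tars ran from -0.65 to -0.13.

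Cytosolic synthetase genes outside the set had log2 ratios on both sides of 0. Of 11 measured genes for other cytosolic synthetases and their scaffold proteins, 8 had log2 ratios above 0 as deposited and 9 with both arrays scaled to the same median, and the median as deposited was 0.26. The 8 include the scaffold genes Aimp1, Aimp2 and Eef1e1, and the 3 below 0, Eprs, Vars and Farsb, are all synthetase genes. Qars (glutamine) was highest at 0.59 (998.47 with GapmeR AK156230 and 664.1 with GapmeR Control). With the mean of its 4 probe sets Qars was at 0.17 and no longer highest, and the median of the list was 0.17 in that setting. Eprs, which joins glutamate and proline synthetases in 1 protein, was lowest at -0.54 (968.25 with GapmeR AK156230 and 1411.41 with GapmeR Control). None of the 11 differed by 2-fold, and none of the 9 with a promoter held the core. The 16 mitochondrial synthetases had a median of -0.13, near that of all named genes, and Mars2, which was below the array median on both arrays, was the only one past 2-fold, at 1.05. These lists were not tested against each other.

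**Figure D4:**
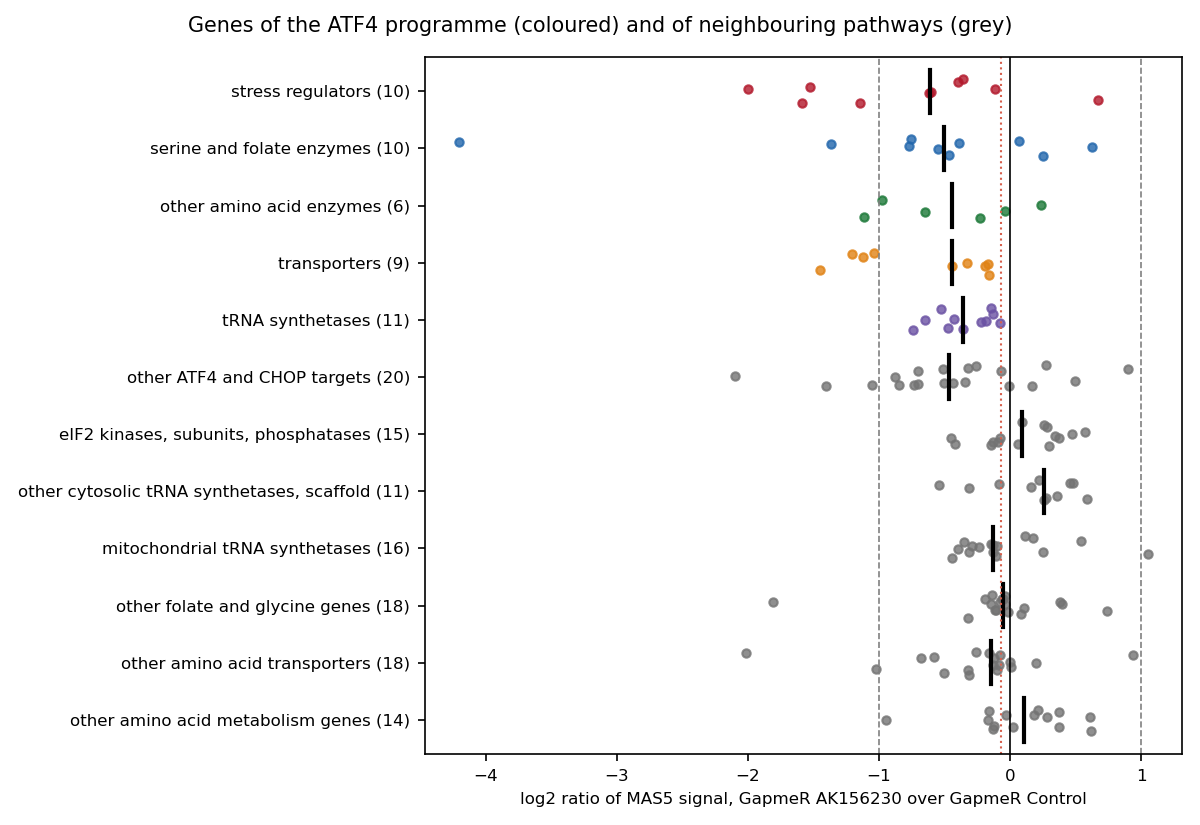
Points are genes and the x axis is the log2 ratio (GapmeR AK156230 over GapmeR Control), for the 5 role groups of the ATF4 set (coloured) and of 7 lists of neighbouring pathways (grey), with the number of genes in brackets, a black bar at each median, dashed lines at 2-fold and a dotted line at the median of all named genes, -0.07. The medians of the 5 coloured groups lie between -0.61 and -0.36, and that of the other cytosolic synthetases lies at 0.26.

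Further targets of ATF4 and CHOP, on a list kept apart from the set, included 3 genes lower by 2-fold or more. Of 20 measured these were 15.0%, against 3.85% of all named genes, 0 were higher, against 1.59%, and 16 had log2 ratios below 0 (80.0%, against 58.8%). The median was -0.47, against -0.07 for all named genes. With both arrays scaled to the same median these counts were 2, 1 and 14, and the median -0.36. The list was chosen with earlier results of these data known, and its counts are no independent check on the set. Vldlr, a lipoprotein receptor, was 4.29-fold lower (117.89 with GapmeR AK156230 and 505.74 with GapmeR Control), or -1.46 on the log2 scale averaged over its 6 probe sets. Vldlr was placed on this list rather than taken as the member entry Vldlr1, which matched no gene. Ero1l (now Ero1a), an oxidase of disulfide formation in the endoplasmic reticulum, was 2.64-fold lower (327.54 with GapmeR AK156230 and 866.22 with GapmeR Control). Herpud1, which acts in degradation of misfolded proteins, was 2.08-fold lower (290.41 with GapmeR AK156230 and 602.85 with GapmeR Control), and -0.99 on the log2 scale with 24.3 added to every signal. Atf3, an early stress factor, had the highest ratio of the list, 0.90 (250.38 with GapmeR AK156230 and 134.38 with GapmeR Control), with the sign of Ppp1r15a.

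Eif2ak3 and Ppp1r15a, described above, belong to the machinery upstream of ATF4. Of 15 other eIF2 kinases, eIF2 and eIF2B subunits and eIF2 phosphatase genes none was lower or higher by 2-fold, and their log2 ratios ran from -0.45 to 0.57 with a median of 0.09. With the mean of its probe sets Eif2ak2, the kinase PKR, was at 0.85. Of 18 other folate and glycine genes only Atic, which acts in the last steps of purine synthesis with formyl-tetrahydrofolate, was past 2-fold, 3.51-fold lower (254.16 with GapmeR AK156230 and 892.39 with GapmeR Control), and the median was -0.06. Of 18 other amino acid transporters 2 were lower by 2-fold or more, 15 had log2 ratios below 0, and the median was -0.15. The 2 were the arginine transporter Slc7a2 at 4.03-fold (79.3 with GapmeR AK156230 and 319.65 with GapmeR Control) and Slc38a4 at 2.03-fold (220.31 with GapmeR AK156230 and 447.61 with GapmeR Control). The share lower was 11.1% of these transporters and 5.56% of the other folate and glycine genes, against 3.85% of all named genes. With the mean of its 4 probe sets Slc7a2 had a log2 ratio of -1.12. With 24.3 added to every signal Slc38a4 was at -0.95. Of 14 other amino acid metabolism genes none was past 2-fold, and the median was 0.10.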

How the data were processed

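The deposited intensity values are linear signals that the authors obtained with MAS5 and scaled per array. Its version is not given in the sources used here, nor is its target. The methods name a porcine array, but the probe sets carry the mouse platform annotation used here. Probe sets that name 1 gene (34945 of 45037; 932 name several) were given RefSeq symbols of GRCm38.p6 through their Entrez IDs, and the brightest probe set by mean log2 signal represented each gene. The log2 ratio was taken on signals as deposited with no offset. SAM, which the methods name, needs replicate arrays, so no test was run and the number of arrays limits the precision. All measured members are named. Genes of other lists are named if past 2-fold with a signal at or above the median on the brighter array, up to 4 a list. Others were picked with their values in view (Atf3, Qars, Eprs, Vars, Farsb, Aimp1, Aimp2, Eef1e1, Mars2, Gcsh, Dld, Mthfd2l, Mtr, Eif2ak2, the cell type markers). The members and lists were chosen with earlier results of these data known. Alternatives were a common median, quantile normalization, loess on mean signal, 24.3 added to every signal (their 25th percentile), a minimum signal at the 25th or 50th percentile, the mean of all probe sets, leaving out _x_at and _s_at probe sets, and thresholds of 1.5-fold and 3-fold. The promoter matches of 1 gene are counted but not reported here. The counting was tested on simulated data. Python 3.11.15, numpy 2.4.6, pandas 2.3.3, statsmodels 0.14.6 and matplotlib 3.10.9 were used.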

Additional observations from a re-analysis of the deposited data

How the results depend on the processing

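The count of 11 genes lower by 2-fold or more was 8 to 11 under the 8 other ways of scaling, filtering or summarizing, and none was higher under any of them. The minimum signals at the 25th and 50th percentile left out none of the measured genes, so they could not change these counts. The count of lower genes was 19 at a threshold of 1.5-fold, with 2 higher, and 2 at 3-fold. The median log2 ratio of -0.45 was -0.35 with both arrays scaled to the same median, where that of all named genes was 0.03 in place of -0.07, and -0.39 with quantile normalization (0.00 for all named genes). It was -0.40 without _x_at and _s_at probe sets, which left 45 genes and dropped Phgdh. In that setting the median was -0.22 for the tRNA synthetases (-0.36 as deposited) and -0.19 for the other amino acid enzymes (-0.44 as deposited). The genes lost at 2-fold were Gpt2 (-0.99 with the offset, -0.85 with the mean of probe sets, -0.15 without _x_at and _s_at probe sets), Slc7a3 (-0.94 with the offset) and Slc1a4 (-0.90 to -0.97 under 4 settings). No paired analysis was possible because each condition has 1 array.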
